A study of Mus musculus with 6 samples.

Results

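Chaperones and genes of the unfolded protein response were examined in primary mouse keratinocytes with and without an active form of the transcription factor NFATc1. Genes were taken by symbol from the platform annotation. They were all J-domain co-chaperones (Dnaja, Dnajb and Dnajc), heat shock protein genes (Hspa, Hspb, Hspd, Hspe, Hsph1 and Hsp90), numbered protein disulfide isomerases (Pdia), and Atf4, Atf6, Xbp1, Ddit3, Ern1, Eif2ak3, Herpud1, Calr and Canx. This gave 84 genes, measured by 108 array rows, of 19935 genes with a row of their own. The Hsp90ab1 and Hspa1b genes had no such row and were not analysed here. The keratinocytes were wild type, of the CD1 strain, and were grown in low-calcium medium. In 3 cultures a retrovirus delivered caNFATc1, a human NFATc1 with an altered autoinhibitory domain that leaves it always active. In 3 vector control cultures the cells received the empty MSCV retrovirus. The series calls the 3 replicates of each group biological without naming their source, so p-values refer only to the spread among these 6 arrays.

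Proteins that enter the endoplasmic reticulum (ER) are folded there by chaperones, chiefly the HSP70 protein BiP (Hspa5), by lectin chaperones that bind sugar chains, and by disulfide isomerases. When unfolded protein accumulates, the ER membrane sensors PERK (Eif2ak3), IRE1 (Ern1) and ATF6 act through the transcription factors ATF4, XBP1 and cleaved ATF6 to raise chaperone and degradation genes. This is the unfolded protein response (UPR). Cytosolic and mitochondrial folding uses other HSP70 proteins, HSP90, the chaperonin HSP60 with HSP10, and J-domain proteins that stimulate HSP70. Many of these genes answer to heat shock factor 1. Keratinocytes make and secrete large amounts of protein as they differentiate, and components of the UPR are known to be active during that process.

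The deposited log2 values are relative to the median of each row over the 6 arrays, so they give differences between arrays and not levels. For that reason the keratinocyte label could not be checked against marker levels. Rcan1, a known NFAT target, had log2 values of 2.17, 1.44 and 1.83 in caNFATc1 cells, against -1.44, -1.68 and -1.57 in vector control cells. Both arrays numbered 1 stood apart from the other 4 in Xist and Eif2s3y. Xist lay at -6.05 in the caNFATc1 array and -6.00 in the vector control array, against values between -0.04 and 0.18 elsewhere. Eif2s3y, a gene of the Y chromosome, lay at 3.77 and 3.00 in those arrays, against values between -0.08 and 0.01 elsewhere. Arrays of the same replicate number deviated together from their group means, with correlations across genes of 0.71, 0.61 and 0.57 for replicates 1, 2 and 3, so each result is also given from a second fit that pairs the arrays by replicate number (the replicate block). Of 9 measured fibroblast markers, 7 had a positive difference with a median of 0.14. The mean of that list lay between 0.08 and 0.64 in the caNFATc1 arrays and between -0.10 and -0.01 in the vector control arrays. The median of the list was -0.004, 0.01 and 0.51 in pairs 1, 2 and 3. Col3a1, a fibroblast collagen, was higher by 1.2 (adjusted p = 0.0296 in the blocked limma fit, 0.108 in the unblocked one). It was the only 1 of the 9 past the blocked fit, and Thy1 and Lum were negative, at -0.14 and -0.01. Markers of keratinocytes, melanocytes, immune cells and endothelium had median differences between -0.07 and -0.02. Of 12 keratinocyte markers 5 were positive. Among them Trp63 was higher by 0.42 (adjusted p = 0.0444 in the blocked limma fit, 0.322 in the unblocked one). Krt15 had the largest difference of the 12, -0.58, and was lower in all 3 pairs with overlap between the groups. It passed neither limma fit (adjusted p = 0.132 in the blocked one, 0.860 in the unblocked one). The part of other cells in the results below was not tested. In such bulk cultures, fewer cells of a type and less RNA per cell cannot be told apart.

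As a family, the 84 genes showed small differences in both directions. All differences are in log2 units, caNFATc1 minus vector control, and they ran from -0.48 for Hsph1 to 0.48 for Dnajb9, with a median of -0.02 against -0.01 over all genes. Of the 84, 40 were positive and 44 negative, with 47.4% of all genes positive, and 0 differed at least 1.5-fold, against 4.25% of all genes. In the unblocked limma fit 0 genes passed an adjusted p of 0.05 over all genes, against 0.216% of all genes called, and 15 had an unadjusted p under 0.05 (17.9%), against 12.7% of all genes. Of these 15, 10 were higher and 5 lower, which is 11.9% and 5.95% of the 84, against 7.07% and 5.64% of all genes. With the replicate block 6 rose and 3 fell, which is 7.14% and 3.57% of the 84, against 3.73% and 2.38% of all genes. Together the 9 are 10.7%, against 6.11% of all genes called in that fit. At an unadjusted p under 0.05 the blocked fit had 19 higher and 10 lower (22.6% and 11.9%), against 11.7% and 9.78% of all genes. Without overlap between the groups, 10 genes were higher and 7 lower (11.9% and 8.33%), against 9.64% and 9.09% of all genes. The rising genes were Atf6, Eif2ak3, Hspa5, Hspa13, Dnajc3 and Dnajb14. The falling genes were Hsph1, Hspd1 and Dnajc9. Most of these calls needed the pairing and all 3 pairs. Without replicate 1 or without replicate 2 of both groups, the blocked limma fit called 0 of the 84. Over all 19935 genes these 2 fits called 509 and 513 higher and 202 and 230 lower. At an unadjusted p under 0.05 they had 26 and 19 of the 84, and the share of all genes was not counted there. Without replicate 3 the blocked fit called 3 higher and 2 lower, against 605 higher and 481 lower of all genes. Among the 5 were Eif2ak3, Hspd1 and Hsph1 of the 9, and the other 2 were Dnajb9 and Hspb11. All 9 genes kept the sign of their difference in every one of the 3 pairs, which a call in the paired fit largely requires. Over the family 23 genes were higher in all 3 pairs and 19 lower, against 21.6% and 21.3% of all genes.

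**Figure D1:**
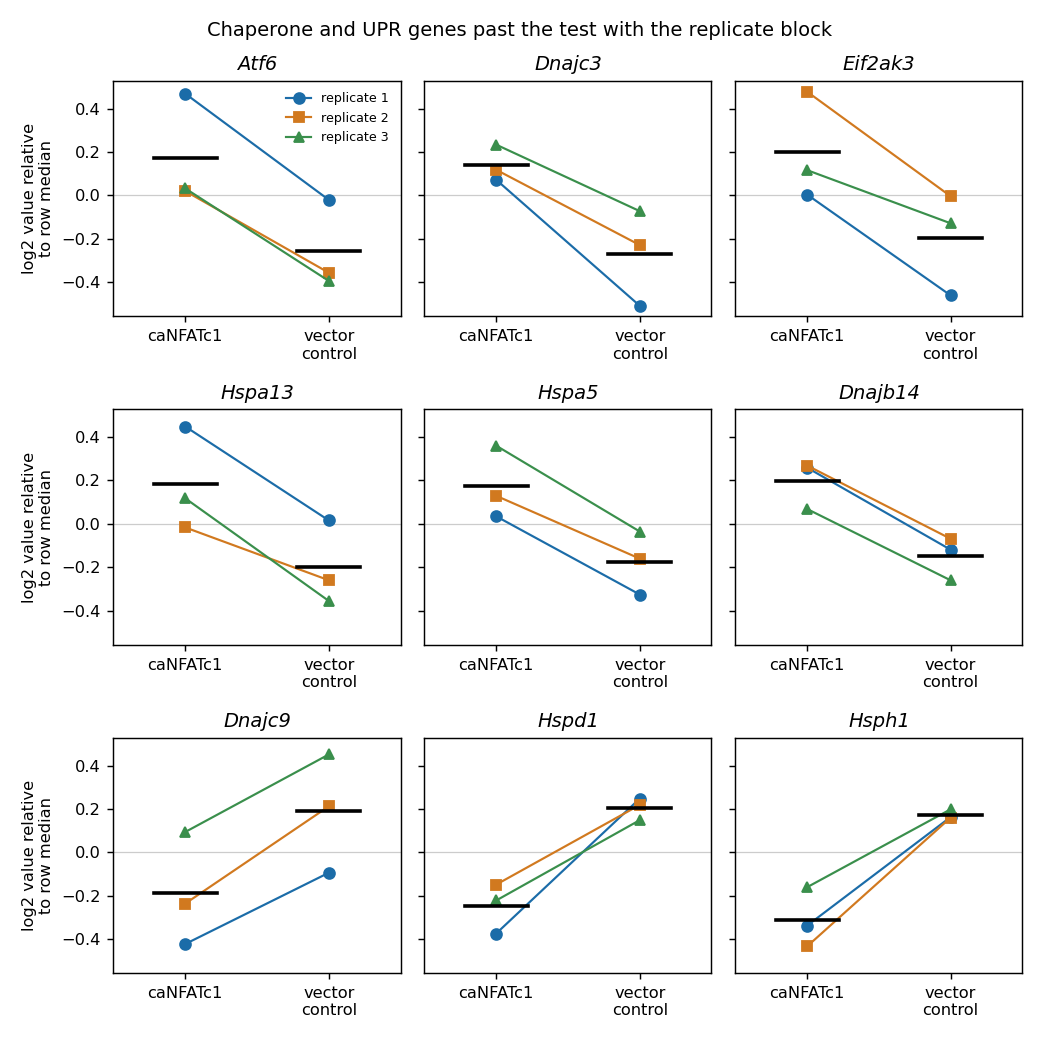
Log2 values relative to the row median (vertical axis) of the 9 genes past the test with the replicate block, in caNFATc1 (left) and vector control (right) cultures. Coloured lines join arrays of the same replicate number and black bars are the means of 3 arrays. All 27 lines run in the direction of the gene's mean difference, which the choice of genes by a paired fit largely ensures. Eif2ak3, Atf6 and Dnajc9 also differ widely between replicate numbers.

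The ER stress sensors Atf6 and Eif2ak3 rose with the replicate block. Atf6, the sensor that is cut to release a transcription factor, had log2 values of 0.47, 0.02 and 0.03 in caNFATc1 cells, against -0.02, -0.36 and -0.39 in vector control cells. The 2 groups did not overlap, although the lowest caNFATc1 value and the highest vector control value differed by little. The difference was 0.43 ± 0.06 (SE with the block, n = 3 pairs, limma adjusted p = 0.0264, and 0.345 without the block), or 1.35-fold. Eif2ak3 encodes PERK, the kinase that slows translation under ER stress, and it had log2 values of 0.00, 0.48 and 0.12 in caNFATc1 cells, against -0.46, -0.00 and -0.13 in vector control cells. Here too the groups did not overlap, by a margin of under 0.01, and replicate 2 was the highest in both. The difference was 0.40 ± 0.08 (adjusted p = 0.0444 with the block, 0.411 without).

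The other UPR factors did not pass either fit. Xbp1, whose mRNA is spliced by IRE1, had log2 values of 0.08, 0.15 and 0.06 in caNFATc1 cells, against -0.17, -0.13 and -0.06 in vector control cells. These groups did not overlap, and the difference was 0.22 ± 0.07 (limma adjusted p = 0.132 with the block, 0.209 without). The array values do not separate spliced from unspliced Xbp1. Ern1, which encodes IRE1, differed by 0.17 ± 0.06 with overlap between the groups (limma adjusted p = 0.195 with the block, 0.478 without). Ddit3, which encodes the death-associated factor CHOP, differed by 0.33 ± 0.08 (limma adjusted p = 0.0719 with the block, 0.603 without). It was higher in all 3 pairs, by 0.43, 0.39 and 0.17, but its groups overlapped. Herpud1, a component of ER-associated degradation, was lower by 0.30 in pair 1 and higher by 0.65 and 0.32 in pairs 2 and 3. Atf4, the effector downstream of PERK, had log2 values of 0.36, 0.03 and -0.46 in caNFATc1 cells, against 0.42, -0.03 and -0.27 in vector control cells. Its groups overlapped across their whole range, with a difference of -0.07 ± 0.07 (adjusted p = 0.718 with the block). Of the 7 sensors and factors, 6 were positive, against 47.4% of all genes, and the median was 0.22. Past the blocked test were 2, against 6.11% of all genes, and past the unblocked limma test 0 (2 at an unadjusted p under 0.05, against 12.7%).

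**Figure D2:**
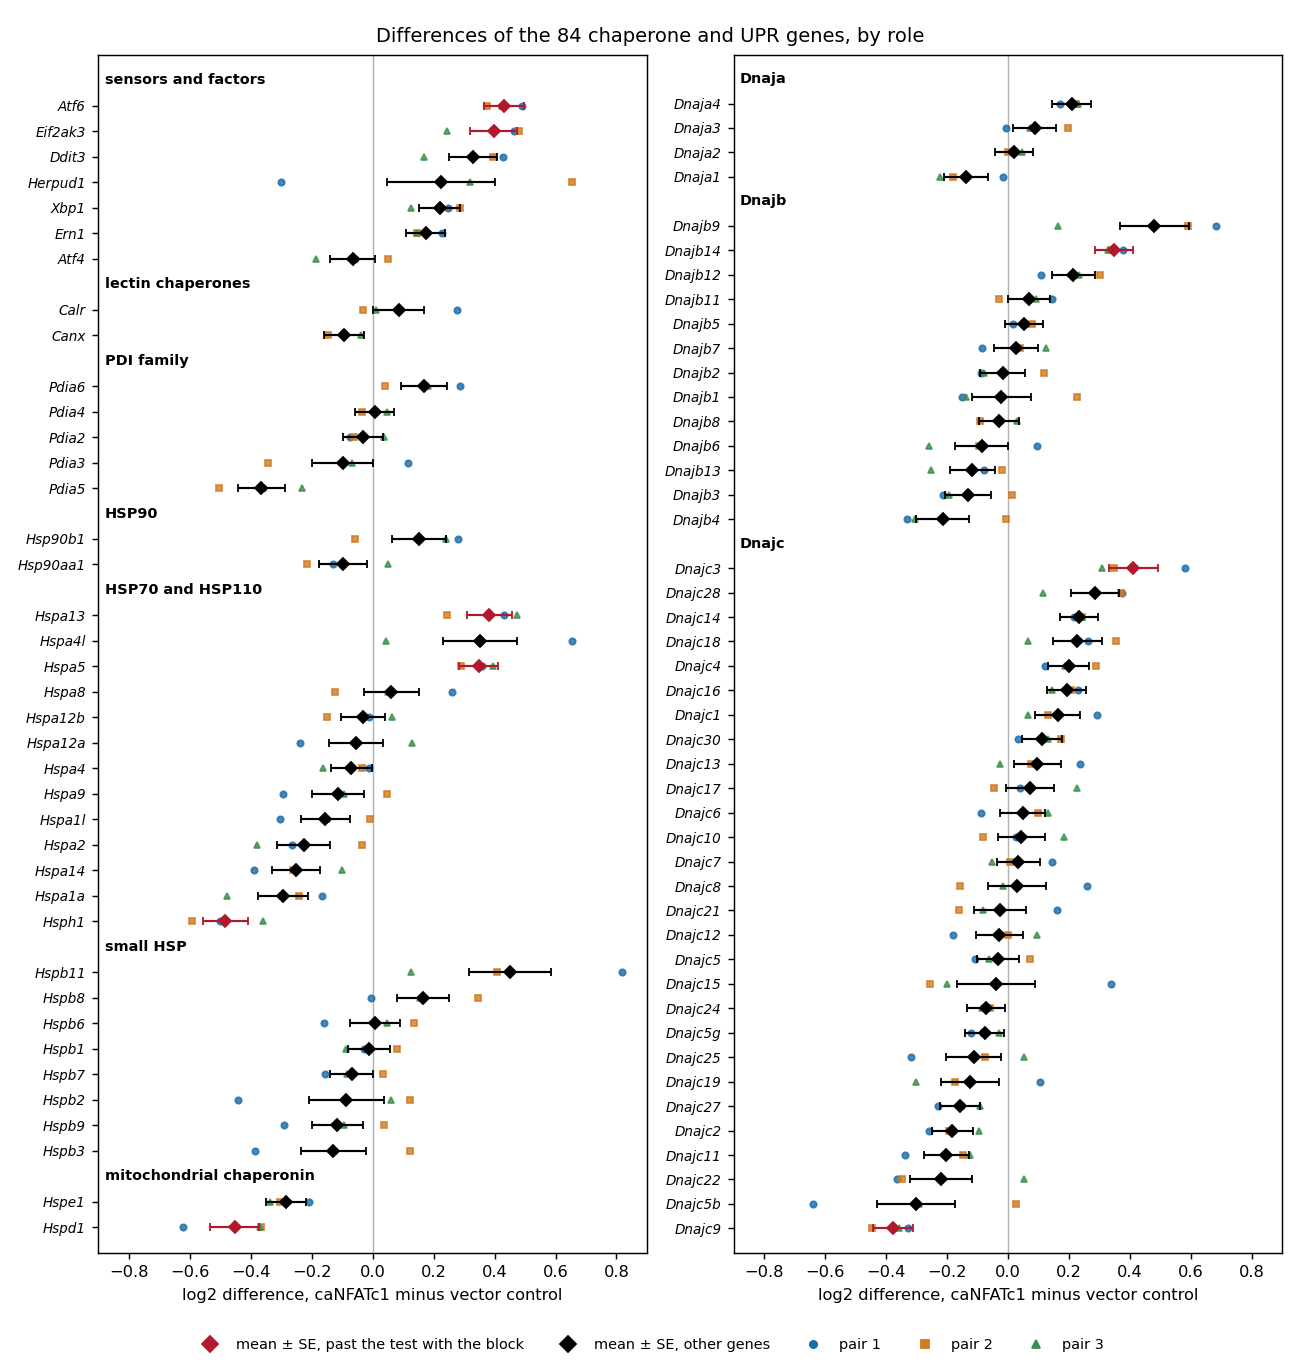
Log2 differences, caNFATc1 minus vector control (horizontal axis), of all 84 genes by role. Diamonds are means with bars of 1 SE from the fit with the replicate block (n = 3 pairs), red where the adjusted p passed 0.05, and small symbols are the 3 same-numbered pairs. Sensors lie mostly right of 0, both mitochondrial chaperonin genes lie left of it, and the J-domain genes spread to both sides.

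In the ER lumen, the HSP70 genes Hspa5 and Hspa13 and the co-chaperone gene Dnajc3 rose with the replicate block. Hspa5, the main ER chaperone BiP, had log2 values of 0.03, 0.13 and 0.36 in caNFATc1 cells, against -0.33, -0.16 and -0.03 in vector control cells. The groups did not overlap and each caNFATc1 array lay above its same-numbered partner, by 0.36, 0.29 and 0.40 in pairs 1, 2 and 3. The difference was 0.35 ± 0.06 (SE with the block, limma adjusted p = 0.0406, and 0.291 without). Dnajc3, a J-domain partner of BiP in the ER, was measured by 2 rows with differences of 0.41 each. Its log2 values were 0.07, 0.12 and 0.23 in caNFATc1 cells, against -0.51, -0.23 and -0.07 in vector control cells, without overlap. The difference was 0.41 ± 0.08 (adjusted p = 0.0451 with the block, 0.239 without). Hspa13, an ER-associated HSP70 protein, had log2 values of 0.45, -0.02 and 0.12 in caNFATc1 cells, against 0.02, -0.26 and -0.35 in vector control cells. These groups overlapped, because replicate 1 was the highest in both, and the difference was 0.38 ± 0.07 (adjusted p = 0.0453 with the block, 0.380 without). On scaling each array to its median the blocked adjusted p was 0.0566 for Dnajc3 and 0.0515 for Hspa13.

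Among the Dnajb genes, Dnajb14 rose with the replicate block. Dnajb14, an ER membrane protein, had log2 values of 0.26, 0.27 and 0.07 in caNFATc1 cells, against -0.12, -0.07 and -0.26 in vector control cells. No array of the 2 groups overlapped, and the difference was 0.35 ± 0.06 (limma adjusted p = 0.0378 with the block, 0.181 without). This rests on 1 row, and 2 rows shared with Pin4, which were left out, differed by -0.05 and -0.06 with overlap. Its relative Dnajb12 differed by 0.21 ± 0.07 without overlap (adjusted p = 0.154 with the block). Dnajb9, or ERdj4, which restrains IRE1, had the largest positive difference of the family. Dnajb9 had log2 values of 0.32, 0.47 and 0.08 in caNFATc1 cells, against -0.36, -0.12 and -0.08 in vector control cells. The groups did not overlap, but pair 3 differed by 0.16 against 0.68 and 0.59 in pairs 1 and 2, and the mean of 0.48 ± 0.11 missed the threshold (adjusted p = 0.0701 with the block, 0.198 without). Dnajb11 (ERdj3) and Dnajc10 (ERdj5, a disulfide reductase) differed by 0.07 ± 0.07 and 0.04 ± 0.08, and both overlapped between the groups. Of the 13 Dnajb genes 6 were positive and the median was -0.02.

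Most of the abundant ER folding enzymes did not pass, and several hardly differed between the groups. Pdia4 had log2 values of -0.35, -0.02 and 0.27 in caNFATc1 cells, against -0.36, 0.02 and 0.23 in vector control cells. The difference was 0.01 ± 0.06, with a 95% interval from -0.15 to 0.16, so the replicate number and not the group separated its arrays. Pdia6 differed by 0.17 ± 0.08 (95% interval -0.02 to 0.36) and Pdia3 by -0.10 ± 0.10 (-0.35 to 0.15). The lectin chaperones calreticulin (Calr) and calnexin (Canx) differed by 0.09 ± 0.08 (-0.12 to 0.29) and -0.09 ± 0.06 (-0.25 to 0.07). Hsp90b1, the ER member of the HSP90 family, differed by 0.15 ± 0.09 (-0.07 to 0.37). Pdia5 ran the other way, with log2 values of -0.22, -0.48 and -0.03 in caNFATc1 cells, against 0.14, 0.03 and 0.20 in vector control cells. No arrays overlapped, and the difference of -0.37 ± 0.08 missed the threshold (limma adjusted p = 0.0548 with the block, 0.302 without).

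Outside the ER, Hsph1 and Hspd1 fell with the replicate block. Hsph1 encodes HSP110, which exchanges nucleotide on cytosolic HSP70. Its log2 values were -0.34, -0.43 and -0.16 in caNFATc1 cells, against 0.16, 0.16 and 0.20 in vector control cells. The vector control arrays lay close together and all 3 caNFATc1 arrays lay below them. The difference was -0.48 ± 0.07 (limma adjusted p = 0.0274 with the block, 0.0868 without). Hspd1, the mitochondrial chaperonin HSP60, had log2 values of -0.37, -0.15 and -0.22 in caNFATc1 cells, against 0.25, 0.22 and 0.15 in vector control cells. Its 2 rows gave differences of -0.45 and -0.46, neither with overlap. The mean difference was -0.45 ± 0.08 (adjusted p = 0.0359 with the block, 0.0868 without). These 2 genes also passed with the replicate number as a random block (limma adjusted p = 0.0321 and 0.0346), where no other gene of the family did. They are 2.38% of the 84 genes, against 2.17% of all genes called in that fit. With quantile normalization and the block, Hspd1 passed (0.0221) and Hsph1 did not (0.0523). Hspe1, the HSP10 lid of the same chaperonin, was lower in all 3 pairs without overlap, and its difference of -0.28 ± 0.07 did not pass (adjusted p = 0.0678 with the block, 0.173 without).

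The remaining HSP70 genes did not pass either limma fit. Hspa1a, a stress-induced HSP70, had log2 values of -0.25, 0.02 and -0.02 in caNFATc1 cells, against -0.08, 0.26 and 0.45 in vector control cells. Its groups overlapped and the difference was -0.29 ± 0.08 (adjusted p = 0.107 with the block). A near-identical neighbour, Hspa1b, can share its probes. The constitutive cytosolic HSP70 gene Hspa8 differed by 0.06 ± 0.09 over 3 rows, and the mitochondrial HSP70 gene Hspa9 by -0.11 ± 0.09. Hspa4l, of the HSP110 group, differed by 0.35 ± 0.12, with 0.66 in pair 1 and 0.05 in pair 3. Of the 13 genes of HSP70 and HSP110, 4 were positive and 9 negative, with a median of -0.07. Cytosolic HSP90 (Hsp90aa1) differed by -0.10 ± 0.08 (95% interval -0.29 to 0.09). Processed pseudogenes of Hspa8, Hspd1, Hspe1 and Hsp90aa1 are known, so shared probe signal is possible for these genes.

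Small heat shock proteins and most cytosolic J-domain genes gave no call. Hspb1 (HSP25), a prominent small heat shock protein of differentiating keratinocytes, had log2 values of -0.19, 0.12 and -0.04 in caNFATc1 cells, against -0.16, 0.04 and 0.05 in vector control cells. The groups overlapped fully, and the difference was -0.01 ± 0.07 (95% interval -0.18 to 0.16). Hspb8 differed by 0.17 ± 0.09. Hspb11 carries the name of the family but is known as an intraflagellar transport protein. Its difference was 0.45 ± 0.13 (limma adjusted p = 0.121 with the block), ranging from 0.82 in pair 1 to 0.13 in pair 3. Dnajb1, the HSP40 partner of stress-induced HSP70, differed by -0.02 ± 0.10, with 0.23 in pair 2 and -0.15 and -0.14 in pairs 1 and 3. Dnaja4 was higher in all 3 pairs without overlap, by 0.21 ± 0.06 (adjusted p = 0.125 with the block), while Dnaja1, Dnaja2 and Dnaja3 differed by between -0.14 and 0.09. Of the 8 small heat shock protein genes 3 were positive, and of the 4 Dnaja genes 3.

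Dnajc9 fell with the replicate block. It encodes a J-domain protein that also binds histones, and had log2 values of -0.42, -0.24 and 0.09 in caNFATc1 cells, against -0.09, 0.21 and 0.45 in vector control cells. The groups overlapped because replicate 3 was the highest in both, and the pairs differed by -0.33, -0.45 and -0.36. The difference was -0.38 ± 0.07 (limma adjusted p = 0.0350 with the block, 0.482 without). The other 26 Dnajc genes besides Dnajc3 did not pass, and the 28 Dnajc genes as a whole were split into 14 positive and 14 negative with a median of 0.00. Dnajc14 and Dnajc28 were the highest of those 26, with differences of 0.23 and 0.29. Dnajc5b, Dnajc22 and Dnajc11 were the lowest, with -0.30, -0.22 and -0.20. Dnajc13, an endosomal J-domain protein, was measured by 15 rows whose differences ran from -0.04 to 0.17. All 15 overlapped between the groups.

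The spread of each gene was also split into shares of replicate number and group. Replicate number has more levels than group, so its share tends to be larger even without an effect. The shares therefore do not rank replicate number against group. Of the sum of squares over the 6 arrays, replicate number took a median of 45.3% and group 25.1% over the 84 genes, against 42.0% and 18.6% over all genes. The 8 genes with the highest share between replicate numbers were Pdia4 at 99.5%, Atf4 at 96.6%, Dnaja2 at 96.2%, Dnajc5 at 95.5%, Pdia6 at 93.0%, Canx at 92.8%, Dnajc24 at 91.7% and Dnajb11 at 91.1%. Other ER folding genes ranged widely below these. Hsp90b1 had 87.9% and Calr 85.9%, while Pdia3 had 34.9%, Hspa5 34.1%, Pdia5 31.2% and Dnajc3 24.5%. In both groups 13 of the 84 genes were lowest in replicate 1 and highest in replicate 3 (15.5%), against 5.24% of all genes. These were the ER folding genes Hspa5, Dnajc3, Hsp90b1, Pdia4, Pdia6, Calr and Canx, and also Dnaja4, Dnajb5, Dnajc8, Dnajc9, Dnajc16 and Hspa14. The reverse order, highest in replicate 1 and lowest in replicate 3 of both groups, was found in 6 genes (7.14%, against 5.65% of all genes), among them Atf4, Ddit3 and Herpud1. The pattern was noticed in these values and was given no test. Replicate 1 is the number that differed in Xist and Eif2s3y, and a link to the pattern was not tested.

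**Figure D3:**
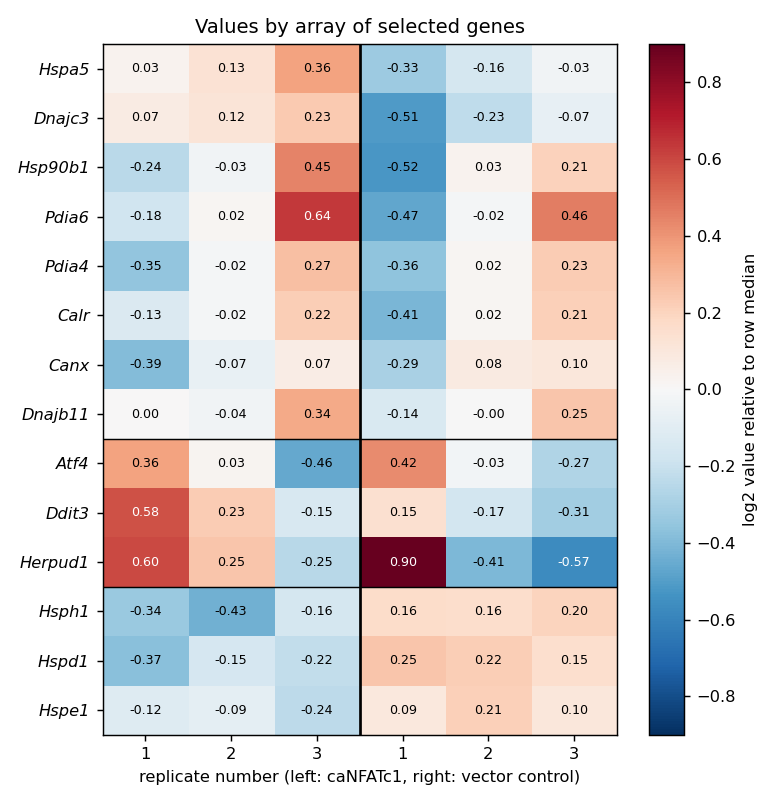
Log2 values relative to the row median for 14 genes (rows, chosen after their values were seen) in the 3 caNFATc1 arrays (left) and the 3 vector control arrays (right), printed in each cell. In the upper block replicate 3 is the highest on both sides, in the middle block replicate 1 is the highest, and in the lower block the caNFATc1 arrays are all below 0 and the vector control arrays all above it.

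Promoter sites of 6 ER folding genes are shown because a known ER stress element lies in them and these 6 were among the 13 genes lowest in replicate 1 and highest in replicate 3. The other 7 are not among the genes with a match. Promoter windows of 300 bases, 250 before the annotated start and 50 after it, came from RefSeq on GRCm38.p6, and 70 of the 84 genes had at least 1 window (87 windows). The ER stress response element, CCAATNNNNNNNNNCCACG, was searched on both strands. It was found in windows of 6 genes, which is 6.9% of the 87, against 39 of all 32851 windows (0.119%). This element is known from promoters of ER chaperones, so its presence here is background. Each site is written in the orientation of the element, with its fixed letters in capitals.

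Hspa5: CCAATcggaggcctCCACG
Dnajc3: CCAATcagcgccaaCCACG
Hsp90b1, nearer site: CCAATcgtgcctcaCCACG
Hsp90b1, farther site: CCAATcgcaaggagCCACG
Pdia6: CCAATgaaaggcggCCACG
Calr: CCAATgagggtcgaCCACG
Canx: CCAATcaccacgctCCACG

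The site of Hspa5 began 65 bases before the start and that of Dnajc3 105 bases before it, both on the strand of the gene. In Calr and at the nearer site of Hsp90b1 the element lay on the opposite strand. The sites were shown partly because all 6 genes were lowest in replicate 1 and highest in replicate 3 of both groups. That order is therefore no separate result about the element. Between the groups the 6 genes differed by 0.35 for Hspa5, 0.41 for Dnajc3 and 0.15 for Hsp90b1. For Pdia6, Calr and Canx the differences were 0.17, 0.09 and -0.09. With the replicate block 2 of the 6 rose, against 3.73% of all genes. Of 15 other measured genes with the element, 2 showed the same order of replicates, against 5.24% of all genes. Of the same 15, 8 were positive, against 47.4% of all genes, and the median difference was 0.01. The 250 bases before the start of Hspa5 lie at chr2:34771840-34772089 on the plus strand (GRCm38.p6), with the fixed letters of the element in capitals.

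Hspa5 promoter: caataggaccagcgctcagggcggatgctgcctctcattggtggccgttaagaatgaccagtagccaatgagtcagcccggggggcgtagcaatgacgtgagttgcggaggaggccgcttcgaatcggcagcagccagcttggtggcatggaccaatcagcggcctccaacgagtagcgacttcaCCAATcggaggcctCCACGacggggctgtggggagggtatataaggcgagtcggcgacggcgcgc

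A second set of sites is shown because it lies in the windows of Hsph1 and Hspd1, which fell with the replicate block, and of Hspe1. The heat shock element, searched as GAANNTTCNNGAA on both strands, was found for 4 genes of the family, Hsph1, Hspd1, Hspe1 and Dnajb6. These held 6 of the 87 windows (6.9%), against 198 of 32851 (0.603%). For Hsph1 and Dnajb6 the same match is counted again in windows of alternative annotated starts, so the 6 are not separate sites. Hspd1 and Hspe1 lie head to head, and the same 2 overlapping matches stand in the windows of both. The match in Hsph1 lay after the annotated start. Many chaperone genes answer to heat shock factor 1, so the presence of the element here is background. Sites are again written in the orientation of the element with fixed letters in capitals.

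Hspd1 and Hspe1, first match: GAAggTTCtaGAA
Hspd1 and Hspe1, second match: GAAccTTCcgGAA
Hsph1: GAActTTCcaGAA
Dnajb6: GAAtcTTCcgGAA

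The 4 genes differed by -0.45 for Hspd1, -0.28 for Hspe1, -0.48 for Hsph1 and -0.09 for Dnajb6. The sites were shown because Hsph1 and Hspd1 fell, so those falls are no separate result about the element. Over 84 other measured genes with the element, 44 were positive and the median difference was 0.00. The 250 bases before the Hspd1 start used here lie at chr1:55087933-55088182 on the minus strand (GRCm38.p6), and the capitals mark both overlapping matches, as they read on the strand of Hspd1.

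Hspd1 promoter: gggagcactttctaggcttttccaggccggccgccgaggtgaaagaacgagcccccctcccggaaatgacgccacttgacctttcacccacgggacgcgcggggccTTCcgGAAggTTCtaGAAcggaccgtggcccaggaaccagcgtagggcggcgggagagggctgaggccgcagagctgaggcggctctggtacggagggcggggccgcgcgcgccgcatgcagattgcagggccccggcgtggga

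Other motifs were also searched on both strands of the same windows. The second ER stress element, ATTGGNCCACG, stood in windows of Herpud1 and Dnajb11 (2.3% of the 87 windows, against 0.0365% of all). The core of the ATF4 element, TGATGNAA, stood in those of Herpud1 and Hspa14 (2.3% against 3.97%), and TGACGTGG, a site of XBP1 and ATF6, in that of Dnajc25 (1.15% against 0.676%). The short NFAT core GGAAAA stood in 24.1% of the 87 windows, against 23.4% of all windows. A match in letters is a description of the window and no record of binding.

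Genes of the same pathways outside the family were taken from lists of textbook members. In ER-associated degradation and glycoprotein quality control, 22 of 27 measured genes were positive, against 47.4% of all genes, with a median of 0.09, against -0.01 over all genes. With the replicate block 2 rose, against 3.73% of all genes, and 0 passed the unblocked limma fit (6 at an unadjusted p under 0.05, against 12.7%). Ube2g2, a ubiquitin-conjugating enzyme of this pathway, had log2 values of 0.55, 0.13 and 0.32 in caNFATc1 cells, against -0.13, -0.43 and -0.31 in vector control cells. The groups did not overlap. Paired by replicate number the gene rose by 0.62 ± 0.07 (limma adjusted p = 0.0111, and 0.137 unpaired). The mannosidase-like gene Edem3, which marks misfolded glycoproteins, rose by 0.40 ± 0.07 (0.0310 with the block, 0.0647 without).

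Among 26 other ER folding factors, 16 were positive, against 47.4% of all genes. With the block 1 rose, against 3.73% of all genes. This was Fkbp14, an ER prolyl isomerase of collagen folding, by 0.75 ± 0.14 (limma adjusted p = 0.0389, and 0.602 without). Its arrays overlapped between the groups, from 1.33 in caNFATc1 replicate 3 to -0.96 in vector control replicate 1. Of 15 further UPR regulators 1 rose with the block, against 3.73% of all genes, namely Creb3, an ER-anchored transcription factor. Its log2 values were 0.22, 0.20 and 0.30 in caNFATc1 cells, against -0.20, -0.35 and -0.35 in vector control cells. All caNFATc1 arrays lay above all vector control arrays, and the difference was 0.54 ± 0.07 (adjusted p = 0.0203 with the block, 0.0548 without). The median differences of these 2 lists were 0.04 and 0.01.

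ATF4 and CHOP target genes moved both ways. Of 22 measured, 10 were positive and the median was -0.04, against 47.4% positive and -0.01 over all genes. With the replicate block 2 rose and 2 fell, against 3.73% and 2.38% of all genes, and 0 passed the unblocked limma fit (4 at an unadjusted p under 0.05, against 12.7%). Nupr1, a stress-induced chromatin protein, had log2 values of 2.34, 0.32 and 0.82 in caNFATc1 cells, against -0.32, -1.79 and -2.13 in vector control cells. The groups did not overlap. Paired by replicate number the gene rose by 2.57 ± 0.16 (limma adjusted p = 0.00382, and 0.198 unpaired). Atf3 rose by 0.47 ± 0.07 (0.0219 with the block, 0.820 without). The cystine transporter gene Slc7a11 fell by 0.91 ± 0.10 (0.0118 with the block, 0.289 without) and Cebpb by 0.43 ± 0.07 (0.0310 with the block, 0.242 without). Trib3, Chac1 and Asns, commonly used readouts of ATF4 (named after their values were seen), differed by 0.15, -0.25 and -0.01 and passed neither fit.

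Heat shock factors and co-chaperones of HSP70 and HSP90 had a median of -0.03 over 28 measured genes. With the block 1 of these rose, against 3.73% of all genes. This was Unc45a, a myosin co-chaperone, by 0.39 ± 0.07 (limma adjusted p = 0.0347, and 0.231 without). The HSP90 co-chaperone genes Ppid and Ptges3 differed by -0.41 and -0.22 without overlap, short of the threshold (0.0503 and 0.108 with the block). Hsf2, a heat shock factor named after its values were seen, had the largest difference of this list, 0.55 ± 0.11, without overlap and also short of the threshold (0.0515 with the block, 0.334 without). The cytosolic chaperonin and prefoldin had 13 of 16 genes negative and 3 positive, against 47.4% of all genes positive, with a median of -0.07. Past either limma fit were 0 genes (0 at an unadjusted p under 0.05 in the unblocked fit, against 12.7% of all genes). Mitochondrial chaperones and proteases had a median of 0.01 over 15 genes, and 0 passed either limma fit (3 at an unadjusted p under 0.05 without the block, against 12.7% of all genes). Of 20 immediate early genes, which respond to many kinds of stress, 3 rose and 1 fell with the block, against 3.73% and 2.38% of all genes. Their median was -0.01, as over all genes. The rising genes were Fosl2, Dusp1 and Atf3, and Fosl2 rose by 0.74 ± 0.08 (0.0116 with the block, 0.126 without). The falling gene was Fosl1, which fell by 1.04 ± 0.13 (0.0158 with the block, 0.653 without) and overlapped between the groups. All 3 of its pairs were lower, by differences of -1.40, -0.90 and -0.80.

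**Figure D4:**
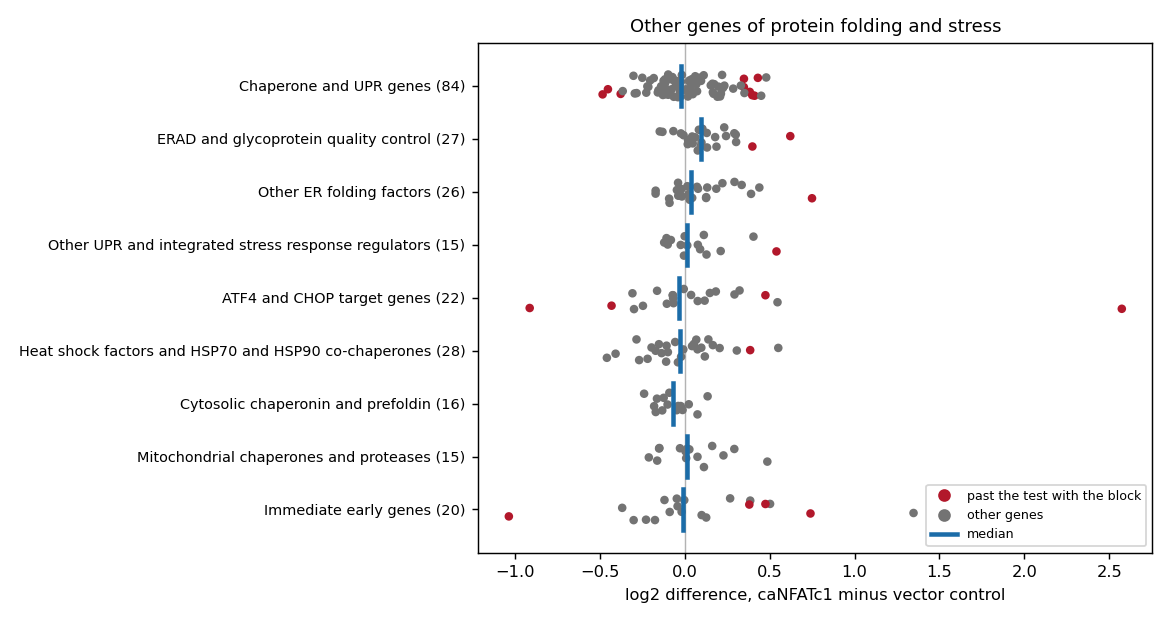
Log2 differences, caNFATc1 minus vector control (horizontal axis), of the 84 genes and of the other lists, with the number measured in brackets and vertical bars at the medians. Each point is a gene, red where it passed the test with the replicate block. The medians lie between -0.07 and 0.09, and Nupr1 is the point at 2.57.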

How the data were processed

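Total RNA of 6 cultures was measured on single-colour arrays with biotin-labelled cDNA. The authors deposited log2 values, and RMA and the build mm8 appear per the submitters' processing notes. No software version is known from those notes. Row medians over the 6 arrays were 0 within rounding, so the deposited values hold no levels, rows could not be filtered on brightness and no depth applies. The number of arrays limits the precision. Base 2 was taken from RMA. Of 28815 rows, 21780 carried 1 gene symbol in the platform annotation, 1605 carried several and 5430 were not listed there. Rows of a gene were averaged, which for this family joined several rows in 9 genes.

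Groups were compared with limma 3.58.1 in R 4.3.3, with a model holding group alone (lmFit, eBayes), 2-sided, and Benjamini-Hochberg adjustment over 19935 genes at a threshold of 0.05. A second fit added the replicate number as a block. Same-numbered arrays correlated above the limit of 0.1 in all 3 pairs (other pairings lay between -0.60 and 0.18), which took the numbers to pair the arrays. Both fits were tested on simulated data. An SE in the text is limma's moderated SE from the fit with the block, and each interval is at 95%. The members, lists and naming rule were chosen with earlier results of these data known, and named genes were those past either fit, up to 4 per role with the lowest p, and 27 fixed genes of which 25 were measured. Other genes were named after their values, motifs or row numbers were seen, among them Dnajc10, Hspa9, Hspa4l, Dnajb6 and Dnajc13.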

Additional observations from a re-analysis of the deposited data

How the results depend on the processing

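In the unblocked limma fit 0 of the 84 genes were called in either direction (15 had an unadjusted p under 0.05), against 0.216% of all genes. The count stayed 0 when each array or each replicate number was left out in turn (8 to 17 genes at that unadjusted threshold). Over all genes those fits called between 0 and 74 higher and between 0 and 9 lower. The replicate block gave 6 higher and 3 lower (10.7%, against 6.11% of all genes). With the replicate number as a random block 0 were higher and 2 lower, Hsph1 and Hspd1 (2.38%, against 2.17% of all genes). After quantile normalization without a block Hspd1 alone, 1 lower, was called (limma adjusted p = 0.0392). Over all genes that setting called 149 higher and 20 lower. Leaving out 1 replicate number of both groups with the block kept gave between 0 and 3 higher and between 0 and 2 lower. Over all genes these fits called 509 to 605 higher and 202 to 481 lower. The cause of the change was not tested, though each such fit has fewer arrays. Further settings with the block were chosen after seeing the data. Quantile normalization with the block gave 4 higher and 1 lower, against 657 and 373 of all 19935 genes. Eif2ak3, Hspa13, Hsph1 and Dnajc9 then had limma adjusted p between 0.0523 and 0.0683. Centring each array on its median gave 4 higher and 3 lower, against 695 and 421 of all genes. Over the genes with the larger spread the blocked fit gave 5 higher and 3 lower of 56, against 916 and 671 of 9968. There Dnajb9 was added and Hspa5 and Dnajb14 were lost. In 4 other such settings (median of rows, the row with the largest spread, every row on its own, robust eBayes) all 9 calls were kept. The median difference, -0.02, was 0.022 with every row on its own, where Dnajc13 counts with 15 rows, and 0.0169 over the 56 genes with the larger spread. It lay between -0.0243 and 0.0143 when arrays or replicate numbers were left out. Among the 44 named members 13 changed sign under at least 1 of 17 alternatives, none of them among the 9. A filter on dim rows was not run, since the values hold no brightness. Precision is limited by 3 arrays per group.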

Other observations

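Rows that the annotation assigns to several symbols were kept out of the 84 genes. One row shared by Hspa1a and Hspa1b had log2 values of -0.11, 0.01 and -0.01 in caNFATc1 cells, against -0.07, 0.31 and 0.52 in vector control cells. Its groups overlapped and it differed by -0.29, as did the row of Hspa1a alone. One row shared by Dnaja1 and Mir207 differed by -0.20, and 1 of the 2 rows of Dnaja1 alone differed by -0.21 without overlap between groups, against -0.07 for the other row. The 4 rows shared by Dnajb6 and Gm4247 differed by between -0.06 and -0.05, and the 2 shared by Dnajb14 and Pin4 by -0.05 and -0.06, whereas the row of Dnajb14 alone differed by 0.35.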
